A study of Homo sapiens with 24 samples.

Results

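The genes described here are the clustered histone genes, taken as every protein-coding gene of the count table whose GENCODE symbol starts with H1-, H2AC, H2BC, H3C or H4C followed by a digit. Of 57736 gene identifiers in the table, 38 met that rule: 10 of family H1, 8 of H2A, 11 of H2B, 5 of H3 and 4 of H4. The annotation names 69 genes of this kind, and the 31 whose identifiers differ from those of the table were not analysed here. The replacement genes H3-3A, H3-3B and H2AX do not meet the rule. On the GRCh37 build, 23 of the 38 genes lay on chromosome 6 between 25723625 and 27860884, and 7 lay on chromosome 1 between 149754245 and 149859515.

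Replication-dependent histone genes supply the histones that package newly copied DNA, and their mRNAs are made mainly in S phase. These mRNAs are unusual in that they normally end just after a short stem-loop, which the stem-loop-binding protein SLBP holds, and they carry no poly(A) tail. A subset of the genes can also make a polyadenylated mRNA, and the linker histone gene H1-10 is expressed outside S phase and makes polyadenylated mRNA as a rule. DAXX is a chaperone for the replacement histone H3.3 and works with the chromatin remodeller ATRX, mainly in silent chromatin and at chromosome ends.

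The libraries were made from U87-T cells, a line of U87 glioblastoma cells that carries a telomerase (TERT) transgene, with a kit that primes on poly(A) and reads the 3′ end of each mRNA, so a histone transcript counts only if it carries adenines at or near its end. There were 8 groups of 3 libraries. The DAXX series held WT and DAXX_KO cells and the ATRX series held WT and ATRX_KO cells, each untreated (control) or given etoposide, a topoisomerase II inhibitor that breaks DNA. WT cells carried an empty Cas9 vector, and each knockout line was a single-cell clone that had survived with features of alternative lengthening of telomeres, so a difference between a knockout and WT is also a difference between 1 clone and its parent line. The dose and time of etoposide for these libraries are not given in the sources used here. The labels of the DAXX_KO samples name the genotype as ATRX KO in one field and DAXX KO in the title, and the titles were followed.

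Library totals ranged from 6928950 to 13298557 counts. DAXX stood at 33.9 ± 1.24 CPM (counts scaled to library size; mean ± SD, n = 3) in WT control cells of its series and at 5.83 ± 1.06 in DAXX_KO control cells, and ATRX fell from 192 ± 4.63 in WT to 80.6 ± 6.08 in ATRX_KO control cells. Every library was high in VIM, CD44 and SPARC, which U87 cells express, while the neural markers GFAP, OLIG2 and SOX2 did not exceed 4.59 CPM and the markers PTPRC, EPCAM and RBFOX3 of other cell types did not exceed 3.02 CPM. The study states in general terms that its experiments were repeated with biological replicates. The labels do not say whether the 3 libraries of a group came from separate cultures, and the p-values measure the spread between these libraries, which may be technical.

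The sequence that sets these genes apart lies just past the stop codon. A histone stem-loop, 6 paired bases on either side of a loop of 4, was found within 200 bases after the stop codon in 33 of the 38 genes and in 10 of 19978 other protein-coding genes (0.0501%). The distance from the stop codon ranged from 22 to 57 bases. The forms carried by the genes discussed most are printed here from GRCh37, 5′ to 3′, with the paired stem bases in capitals and the loop in lower case, because they are the signal that a non-polyadenylated histone mRNA ends on.
H1-2 (chr6:26055972-26055987, minus strand): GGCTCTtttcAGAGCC
H2BC12 (chr6:27114145-27114160, minus strand): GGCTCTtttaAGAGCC
H4C3 (chr6:26104545-26104560, plus strand): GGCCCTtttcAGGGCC
H2AC20 (chr1:149858941-149858956, plus strand): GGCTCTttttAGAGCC
H2AC11 (chr6:27101294-27101309, plus strand): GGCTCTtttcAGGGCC
The H1-2 form was the commonest, shared by 20 genes; the H2BC12 form was shared by 7, the H4C3 form by 4 (all H4 genes), and the last 2 forms had 1 gene each.

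The 33 genes with a stem-loop fell into 2 sets by where their annotated transcripts end. In 21 of them the longest annotated transcript stopped 3 to 6 bases past the stem-loop. In the other 12 at least 1 annotated transcript ran on for 1729 to 37155 bases past it, as a spliced or extended mRNA; these were H2AC1, H2AC6, H2AC25, H2BC4, H2BC5, H2BC11, H2BC15, H2BC18, H2BC21, H2BC26, H4C8 and H4C16. The 5 genes without a stem-loop included H1-7, H1-8, H1-10 and H2BC12L. A hexamer AATAAA or ATTAAA, the signal for cleavage and polyadenylation, stood within 500 bases of the stop codon in 13 of 38 genes against 53.7% of other protein-coding genes. In H1-2 and H2BC5 such a signal followed the stem-loop after 12 bases, and in H4C3 and H2BC12 none did at that distance. The 30 bases from the fifth base of the stem-loop onward are shown for the 4 genes, with the polyadenylation signal in capitals, to set the close signal beside its absence.
H1-2 (chr6:26055954-26055983, minus strand): cttttcagagccaccactgatctcAATAAA
H2BC5 (chr6:26158819-26158848, plus strand): cttttaagagccacgcatgttttcAATAAA
H4C3 (chr6:26104549-26104578, plus strand): cttttcagggccgctcacaaagtcgtttaa
H2BC12 (chr6:27114127-27114156, minus strand): cttttaagagccacttaaattatcgatatt

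Few of the 38 genes carried most of the histone reads. H4C3, an H4 gene, held 32.4% of all counts on these genes, and the 3 highest genes (H4C3, H1-10 and H1-2) together held 77.2%. The 15 with the highest mean CPM held 98.8%. After these 3 they included H2BC12, H2AC6, H2AC20, H2BC21, H1-3, H1-4, H2BC5, H2BC11, H4C11, H2BC15 and H2BC4, from 84.7 CPM for H2BC12 down to 3.41 CPM for H2BC4 as means over the 24 libraries. These are read counts at 3′ ends, not divided by length. At the other end, H1-6, H1-7, H2AC1 and H2BC1, which are known mainly from germ cells, had no count in any library, and another 11 genes had fewer than 100 counts over all 24 libraries: H3C14, H3C15, H3C12, H2AC25, H2AC13, H2AC7, H2BC13, H2BC12L, H3C13, H1-8 and H2BC26. Counts this low in any 1 library do not separate a silent gene from one below 3 counts, which is 0.217 to 0.405 CPM depending on the library.

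The filter on low counts let 20 of the 38 genes into the DAXX series test and 21 into the ATRX series test, 19 of them shared. H2BC18 was tested in the DAXX series alone, H3C4 and H2AC21 in the ATRX series alone, and H4C16 only where all 24 libraries were fitted together. A gene can pass this filter through the group in which it is high, so counts over the tested genes describe those genes and not all 38. H2BC18 passed only through the WT control libraries of the DAXX series, and H2AC21 only through those of the ATRX series. For these genes the filter favoured falls from that group, and they are included in the counts of genes called lower. Some copies share sequence: H3C14 and H3C15 had the same count in each of the 24 libraries. Of the 75-base windows in the last 300 bases of the transcript, 88.1% were shared between H4C11 and H4C12, 77% of those of H2BC18 were shared with other genes, H2BC21 among them, 45.6% of those of H2BC12 were shared with other H2B genes, and 33.2% of those of H2AC20 were shared with H2AC19, so their levels are uncertain in that measure. H4C3, H1-2, H1-3, H1-4, H1-5 and H2AC6 shared none with another annotated histone gene. H4C3 lies opposite an annotated extended transcript of H2BC4, and whether the counting used strand is not given in the sources used here.

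Etoposide lowered the abundant genes H4C3 and H1-2 in every genotype, while H1-10 and several genes with an annotated longer transcript rose. In DAXX-series WT cells, edgeR's quasi-likelihood test with Benjamini-Hochberg adjustment over all genes called 17 of 20 tested genes (adjusted p under 0.05), 5 higher and 12 lower, where 29.6% of all tested genes were called higher and 30.6% lower. DESeq2 called 5 higher and 9 lower. In ATRX-series WT cells edgeR called 17 of 21, 5 higher and 12 lower, against 31.7% and 29.8% of all genes. The median log2 fold change of the tested members was -0.83 and -1.57 in the DAXX and ATRX series, against 0.02 and 0.07 over all genes. In bulk RNA, fewer cells in S phase and less histone mRNA per cell cannot be told apart.

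H4C3 showed the fall most plainly. In the DAXX series its levels were 722, 656 and 766 CPM in WT control libraries and 232, 228 and 216 with etoposide; in DAXX_KO cells they were 482, 485 and 539 without and 135, 147 and 101 with it. In the ATRX series the WT control values were 588, 693 and 487 and the etoposide values 246, 250 and 289, and in ATRX_KO cells 331, 313 and 317 became 156, 111 and 63.7. No treated library overlapped its untreated group. The log2 fold changes were -1.67 ± 0.10 (SE) in WT and -1.97 ± 0.10 in DAXX_KO cells of the DAXX series, and -1.17 ± 0.20 and -1.54 ± 0.21 in WT and ATRX_KO cells of the ATRX series, with adjusted p-values of 1.96e-11, 3.9e-12, 9.69e-05 and 1.13e-05 by edgeR.

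The linker histone genes of the chromosome 6 cluster, H1-1 to H1-5, whose proteins bind DNA between nucleosomes, fell in both WT groups: 5 of 5 were called lower in each. H1-5 went from 7.63 ± 0.133 to 0.663 ± 0.37 CPM in DAXX-series WT cells and from 8.04 ± 1.62 to 0.615 ± 0.362 in those of the ATRX series. H1-3 went from 21.8 ± 2.56 to 2.68 ± 0.488 and from 27.7 ± 3.13 to 3.43 ± 0.329, a log2 fold change of -3.01 in each series (SE 0.23 and 0.24). H1-2 was the most abundant of them. In the DAXX series its WT control libraries held 299, 319 and 309 CPM and its etoposide libraries 166, 159 and 164, while in the ATRX series 299, 322 and 293 fell to 73.7, 82 and 79.6, with no overlap in either. Its log2 fold changes were -0.92 ± 0.08 and -1.96 ± 0.07. H1-4 fell by 2.03 and 2.08 on the log2 scale. Beside these, the largest fall in the ATRX series was that of H2AC21 (-3.28 ± 0.53). It rested on 60 counts over the control libraries and 5 over the etoposide libraries, a 10.3-fold ratio with a 95% exact counting interval of 4.17 to 32.8. H2AC21 passed the filter on low counts only through those WT control libraries, so a fall was favoured by that choice.

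H1-1 was the lowest of the 5 and reached 0 counts in all 6 etoposide-treated knockout libraries. Against a floor of 3 counts per library, it was at least 6.8-fold lower with etoposide in ATRX_KO cells (58 counts before) and at least 3.12-fold lower in DAXX_KO cells (25 counts before). For H1-5, 133 counts in ATRX_KO control libraries became 5 with etoposide, a 28.3-fold fall with a 95% exact interval of 11.8 to 88.6 that covers counting error only.

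H1-10, a linker histone made outside S phase, moved the other way in all 4 etoposide comparisons. In the DAXX series its WT libraries held 175, 197 and 169 CPM without etoposide and 423, 431 and 426 with it, and in the ATRX series 287, 313 and 341 became 552, 528 and 598. Neither pair of groups overlapped. H1-10 rose by 0.83 to 1.24 on the log2 scale, from 180 ± 14.7 to 427 ± 3.7 CPM in DAXX-series WT cells and from 149 ± 6.58 to 343 ± 54.3 in ATRX_KO cells.

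The sets by annotated 3′ end gave different counts in WT cells. Among tested genes annotated to end at the stem-loop, 8 of 10 were called lower in the DAXX series and 10 of 12 in the ATRX series, and 0 were called higher by edgeR in either (also 0 at an unadjusted p under 0.05 and 0 by DESeq2). Among genes annotated past the stem-loop, 3 of 8 were higher and 4 lower in the DAXX series, and 3 of 7 were higher and 2 lower in the ATRX series. Of all tested genes, 29.6% were higher and 30.6% lower in the DAXX series, and 31.7% higher and 29.8% lower in the ATRX series. The risers included H2BC21 and H2BC15, both H2B genes, which were called higher in all 4 etoposide comparisons, and H2BC4 and H2BC11 were lower in both WT groups. The calls of H2BC5, H2BC11 and H2BC18 in the DAXX series, and of H2BC15 in the ATRX series, were lost when 1 library was left out; H2BC11 was at -0.55 without DAXX_WT_etoposide replicate 2 and H2BC15 at 0.69 without ATRX_WT_control replicate 2. H2BC4 in the ATRX series was at -2.14 ± 0.41, and at -2.95 without ATRX_WT_etoposide replicate 2. The split into 2 sets was made with earlier results of these data known and carries no test of its own.

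**Figure D1:**
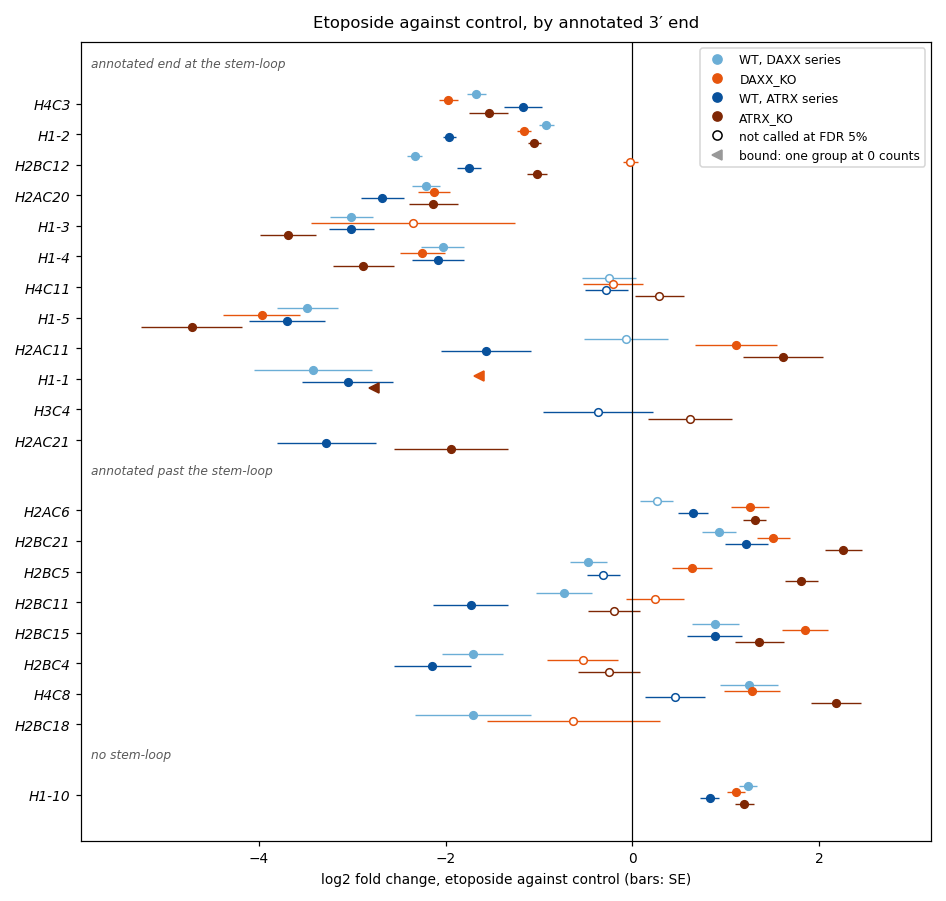
Log2 fold change of etoposide against control for tested clustered histone genes (horizontal axis, bars are SE of the edgeR fit), with genes ordered by level within 3 sets by annotated 3′ end, 1 colour for each genotype and series, open points for results not called at a false discovery rate of 5%, and triangles for lower bounds where a group had 0 counts. Genes annotated to end at the stem-loop lie mostly left of 0, and H1-10 lies right of 0 in all 4 comparisons.

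Summed over members, the fall was steep in the set annotated to end at the stem-loop. These 21 genes together went from 1276, 1224 and 1298 CPM to 450, 439 and 432 with etoposide in DAXX-series WT cells. In those of the ATRX series they went from 1084, 1201 and 957 to 362, 373 and 414. The sum mainly follows H4C3 (715 ± 55.3 CPM in DAXX-series WT control cells), H1-2 (309 ± 10.1) and H2BC12 (153 ± 9.42). The knockouts started lower and also fell, DAXX_KO from 796 ± 20.4 to 289 ± 34.2 and ATRX_KO from 770 ± 29.8 to 320 ± 60.4. The 12 genes annotated past the stem-loop summed to less: 46.1 ± 1.26 and 49.2 ± 5.93 CPM without and with etoposide in DAXX-series WT cells, 29.7 ± 1.28 and 32.5 ± 3.12 in ATRX-series WT cells, 24.8 ± 0.619 and 52.6 ± 6.47 in DAXX_KO cells. In ATRX_KO cells that sum rose from 48.8, 53.7 and 62.5 to 137, 136 and 139 CPM, the highest of the 8 groups, with H2AC6 and H2BC21 as its largest parts. All 38 genes together made up 0.142% to 0.148% of the counts of WT control libraries in the DAXX series and 0.0674% to 0.0702% in etoposide-treated DAXX_KO libraries.

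**Figure D2:**
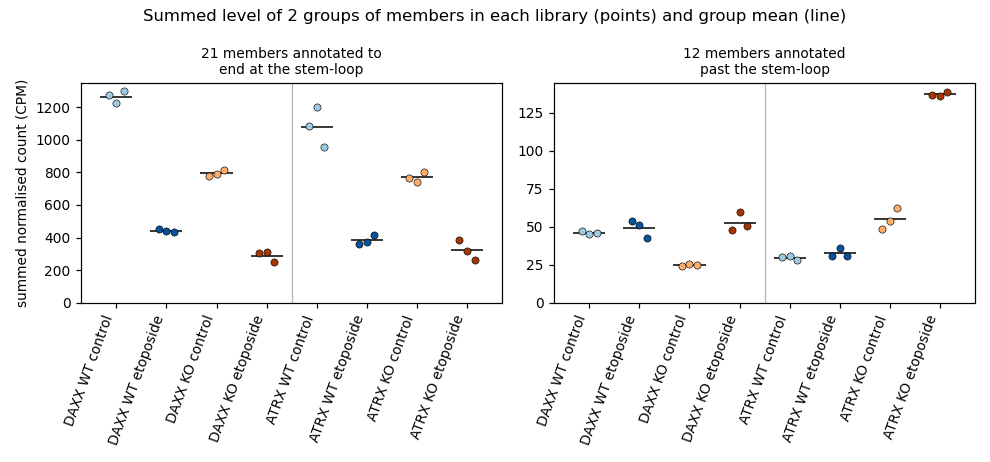
Summed normalised count (CPM, linear axis from 0) in each of the 24 libraries (points) with the group mean (line), for 21 genes annotated to end at the stem-loop (left) and 12 annotated past it (right). The left panel falls with etoposide in both WT groups and in both knockouts, and the right panel is highest in ATRX_KO cells given etoposide, at 136 to 139 CPM.

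The response to etoposide was then measured within each knockout. In DAXX_KO cells 8 of 20 tested genes were called higher and 6 lower, against 26.8% and 27.8% of all genes, and in ATRX_KO cells 8 of 21 were higher and 9 lower, against 24.3% and 25.2%. The member median was -0.12 and -0.20, against 0.00 and 0.03 over all genes. The most increased members in DAXX_KO cells were H2BC15 (1.85 ± 0.25), H2BC21 (1.51 ± 0.18) and H4C8 (1.28 ± 0.30), and those in ATRX_KO cells were H2BC21 (2.26 ± 0.20), H4C8 (2.18 ± 0.27) and H2BC5 (1.81 ± 0.18), all as log2 fold changes with SE. H2BC21 went from 7.39, 6.44 and 5.96 to 23.8, 30.8 and 39.9 CPM in ATRX_KO cells, and H2AC6 from 21.9, 25.9 and 31.4 to 70.2, 65.5 and 60.5, in both cases with no overlap. The largest called falls in DAXX_KO cells besides H1-1 were those of H1-5 (-3.97 ± 0.41) and H1-4 (-2.25 ± 0.24), and in ATRX_KO cells those of H1-5 (-4.72 ± 0.54) and H1-3 (-3.69 ± 0.30). The H1-5 value was -4.12 without ATRX_KO_etoposide replicate 2 and -5.36 without replicate 3.

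Whether the response differed between genotypes was tested as an interaction. In the DAXX series 3 of 20 genes passed, all with a more positive response in DAXX_KO cells: H2BC12 (2.32 ± 0.11, adjusted p = 2.59e-10), H2BC5 (1.12 ± 0.29, adjusted p = 0.0136) and H2AC6 (1.00 ± 0.27, adjusted p = 0.018), against 8.38% of all genes called higher and 5.79% lower. H2BC12, an H2B gene, was the clearest case. Its WT libraries fell from 161, 156 and 142 CPM to 31.6, 28.2 and 31.3 with etoposide, whereas its DAXX_KO libraries were at 60.7, 64.7 and 66.7 before and 64.3, 64.7 and 60.8 after. The DAXX_KO groups overlapped (log2 fold change -0.02 ± 0.08), and with etoposide DAXX_KO stood above WT while without it DAXX_KO stood below.

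In the ATRX series 11 of 21 genes passed the interaction test, 10 with a more positive response in ATRX_KO cells and H1-1 with a more negative one, against 8.36% and 7.64% of all genes. They included H2AC11 (3.19 ± 0.64), H2BC5 (2.12 ± 0.26), H2BC4 (1.89 ± 0.53), H4C8 (1.71 ± 0.43), H2BC11 (1.53 ± 0.49), H2BC21 (1.04 ± 0.31), H1-2 (0.91 ± 0.10), H2BC12 (0.73 ± 0.17) and H2AC6 (0.66 ± 0.20). Of the 6 genes listed as able to make polyadenylated mRNA (H1-2, H2AC6, H2BC4, H2BC5, H2BC12 and H2BC21), 6 passed in the ATRX series and 3 in the DAXX series, all with a more positive response in the knockout; that list was drawn up with earlier results of these data known. Only H1-2, H2AC11, H2BC5, H2BC12 and H4C8 stayed called when each library was left out in turn, and the count of 11 dropped to 5 without ATRX_WT_control replicate 1. H2BC4 was at 2.70 without ATRX_WT_etoposide replicate 2. H2BC5 shows the contrast at low level: WT libraries of the ATRX series held 5.68, 8.23 and 5.76 CPM without etoposide and 5.36, 5.64 and 4.82 with it, and ATRX_KO libraries 4.44, 4.18 and 3.26 without and 13.2, 14.4 and 14 with it. H2AC11 rested on few reads, 1.54 ± 0.196 and 0.507 ± 0.288 CPM in WT and 0.687 ± 0.227 and 2.13 ± 0.916 in ATRX_KO cells.

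The next comparison asked which clustered histone genes differed between knockout and WT cells before any damage. In DAXX_KO control cells 14 of 20 tested genes were called lower and 0 higher by edgeR (0 higher also at an unadjusted p under 0.05 and by DESeq2), against 26.6% of all genes lower and 26.7% higher. The member median was -0.79, against 0.02 over all genes. In ATRX_KO control cells 12 of 21 were called lower and 4 higher, against 21% and 20.8%, with a member median of -0.73. Each of these comparisons shares its WT control libraries with the etoposide comparison of the same WT cells. H1-10, H2BC11, H4C11 and H1-5 in DAXX_KO cells, and H2BC21, H1-5 and H2AC11 in ATRX_KO cells, lost the call when some single library was left out. Among the 19 genes tested in both series, 9 were lower in both knockouts and 0 were higher in both, where 12.7% and 10.7% of the 15039 genes tested in both series were.

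H1-3 had the largest difference of any member in DAXX_KO cells. Its raw counts were 229, 206 and 157 in the WT control libraries and 3, 0 and 3 in the DAXX_KO control libraries, and 1 count was left over the 3 etoposide-treated DAXX_KO libraries. The pooled ratio in control cells was 87-fold with a 95% exact counting interval of 39.7 to 238, and the fitted log2 fold change was -6.36 ± 0.35. In ATRX_KO cells the same gene fell from 26.7, 31.2 and 25.2 CPM to 13, 9.45 and 15.3, a log2 fold change of -1.14 ± 0.21. The difference between the knockout effects was -5.23 ± 0.49 (adjusted p = 4.41e-09, edgeR over 24 libraries). The other linker genes of the cluster moved less in DAXX_KO cells: H1-2 by -0.71 ± 0.08 and H1-5 by -0.82 ± 0.25, both called, with H1-4 at -0.28 ± 0.19 and H1-1 at -0.88 ± 0.46 not called.

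Both knockouts had less H1-10, which was lower by 0.32 ± 0.10 in DAXX_KO and by 1.07 ± 0.10 in ATRX_KO control cells on the log2 scale. The H1-10 difference in DAXX_KO cells was lost when libraries were scaled by their totals alone (-0.13). H4C3 was lower as well, by 0.51 ± 0.09 and 0.88 ± 0.20, and H2AC20, an H2A gene of the chromosome 1 cluster, by 0.87 ± 0.13 and 1.58 ± 0.21. H2AC20 libraries held 36.4, 35.9 and 32 CPM in WT and 15, 21.9 and 20.2 in DAXX_KO cells, and 63, 50.8 and 51.7 in WT and 19.4, 15.4 and 20.6 in ATRX_KO cells, with no overlap in either series. Besides H1-3, the largest falls in DAXX_KO cells were those of H2BC18 (-2.20 ± 0.66) and H2BC4 (-1.51 ± 0.32). H2BC18 rested on 38 counts over the WT libraries and 7 over the DAXX_KO libraries, a 4.79-fold ratio with a 95% exact counting interval of 2.11 to 12.7. It passed the filter on low counts only through those WT control libraries, so a fall was favoured by that choice. In ATRX_KO cells the largest falls included those of H2AC21 (-1.62 ± 0.43) and H2AC20. H2AC21 was low in both groups, at 1.65 ± 0.295 CPM in WT and 0.527 ± 0.125 in ATRX_KO cells, and it too passed the filter only through its WT control group.

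H2BC12, H2AC6 and H2BC11 went in opposite directions in the knockouts, each called in both. H2BC12 had 161, 156 and 142 CPM in WT and 60.7, 64.7 and 66.7 in DAXX_KO control cells, and 65.8, 60.9 and 69.5 in WT and 162, 186 and 219 in ATRX_KO control cells. H2AC6 had 14.6, 16.5 and 15.3 in WT and 7.37, 7.39 and 6.26 in DAXX_KO, and 6.3, 8.15 and 6.18 in WT and 21.9, 25.9 and 31.4 in ATRX_KO. The WT groups of the 2 series, nominally the same cells, differed for these genes without overlap: the WT level of the ATRX series was close to the DAXX_KO level, and the ATRX_KO level was above both. WT cells differed between series for H1-10 (180 ± 14.7 and 314 ± 27 CPM) too, and series and culture cannot be told apart there. Each knockout was therefore set against the WT of its own series. H2BC11 was at -0.76 ± 0.30 in DAXX_KO cells, a call that was lost on leaving out DAXX_KO_control replicate 1 (-0.68) and some other single libraries.

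**Figure D3:**
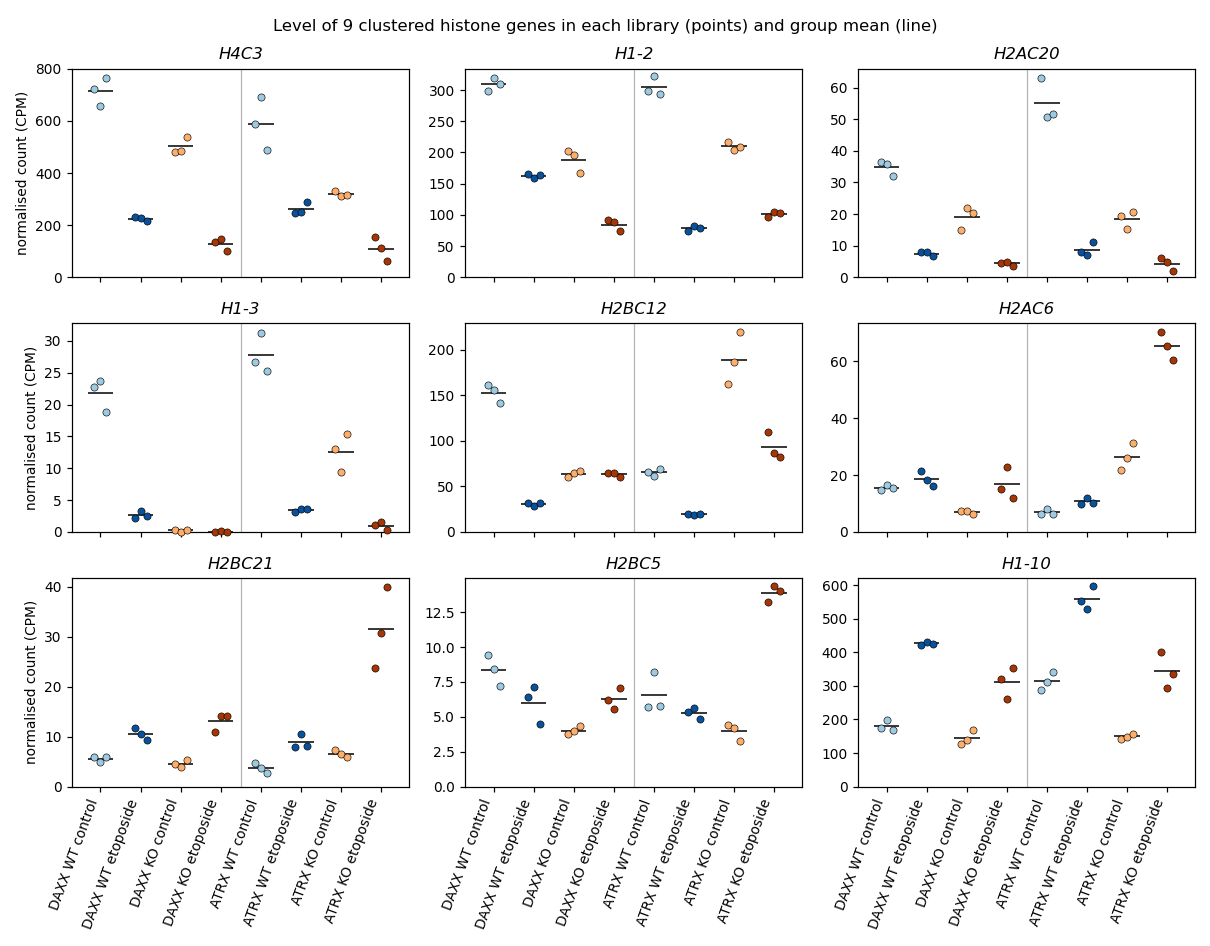
Normalised count (CPM, linear axes from 0) of 9 clustered histone genes in each library (points) and the group mean (line), with the DAXX series left and the ATRX series right of the grey line in each panel. H4C3, H1-2, H2AC20 and H1-3 drop with etoposide in WT cells, H1-10 rises, and H2BC12 and H2AC6 are higher in ATRX_KO and lower in DAXX_KO than in the WT cells of the same series.

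Taking each knockout effect against its own WT, edgeR called 11 of 23 members as different between DAXX_KO and ATRX_KO in control cells, 4 with the DAXX_KO effect more positive and 7 with it more negative, against 17% and 17.2% of all genes. The 7 were H1-3, H2AC6 (-3.08 ± 0.27), H2BC12 (-2.78 ± 0.14), H2BC11 (-2.11 ± 0.44), H2BC4 (-1.54 ± 0.49), H2BC15 (-1.12 ± 0.39) and H2BC21 (-1.05 ± 0.32), of which 5 are H2B genes. The 4 included H2AC21 (1.88 ± 0.69), H1-10 (0.76 ± 0.15) and H2AC20 (0.71 ± 0.27). H2AC21, H2AC20 and H2BC15 lost the call when some single library was left out, and 7 calls were left without ATRX_WT_control replicate 1. Among 7 tested H2B genes, 5 were lower and 0 higher in DAXX_KO control cells, against 26.6% and 26.7% of all genes. Among 6 in ATRX_KO control cells 3 were higher and 1 lower, against 20.8% and 21% of all genes.

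**Figure D4:**
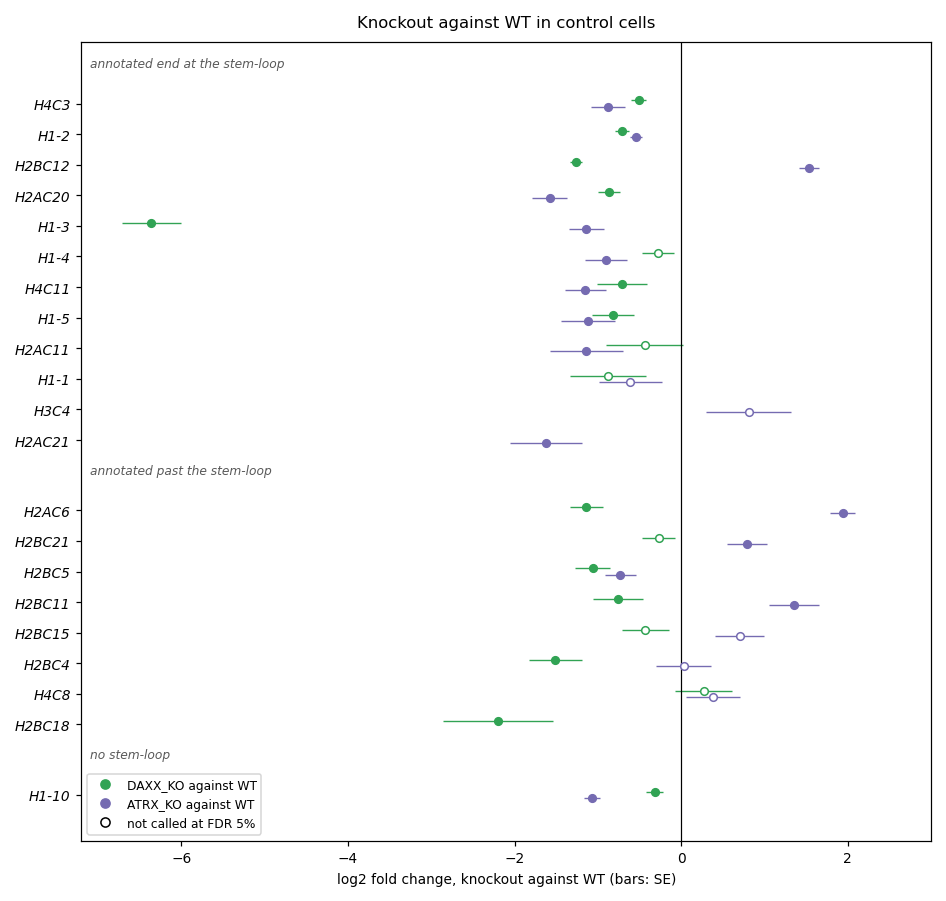
Log2 fold change of knockout against WT in control cells for tested members (bars are SE of the edgeR fit), DAXX_KO in green and ATRX_KO in purple, open points not called at a false discovery rate of 5%. Most points lie left of 0, H1-3 in DAXX_KO cells lies at -6.36, and H2BC12, H2AC6 and H2BC11 lie on opposite sides of 0 in the 2 knockouts.

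The last comparison set knockout against WT among etoposide-treated cells. ATRX_KO cells had 11 of 21 genes higher and 8 lower than WT, against 23% and 22.9% of all genes, and the 7 tested genes annotated past the stem-loop were all higher. The largest were H2BC11 (2.89 ± 0.37), H2AC6 (2.60 ± 0.14) and H2BC12 (2.26 ± 0.13), and 6 of 6 tested H2B genes were higher. H1-2 changed sides, from -0.54 ± 0.07 in control cells to 0.37 ± 0.07 with etoposide, with 73.7, 82 and 79.6 CPM in WT and 96.6, 105 and 103 in ATRX_KO libraries. The largest falls other than H1-1, which had 9 counts in WT and 0 in ATRX_KO libraries, were those of H1-5 (-2.13 ± 0.74) and H1-3 (-1.82 ± 0.35); H1-5 was not called without ATRX_KO_etoposide replicate 2 (-1.53) or ATRX_WT_etoposide replicate 3 (-1.59). H2BC4 was at 1.92 ± 0.41, and at 2.74 without ATRX_WT_etoposide replicate 2.

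In DAXX_KO cells given etoposide, 7 of 20 genes were called, H2BC12 higher and 6 lower, against 27.9% and 25.2% of all genes. H2BC12 stood at 63.3 ± 2.16 against 30.4 ± 1.89 CPM in WT (log2 fold change 1.06 ± 0.08). The 6 lower genes included H1-3 (1 count against 64, a 72.1-fold ratio with an exact counting interval of 12.5 to 2893), H1-2 (-0.95 ± 0.08), H4C3 (-0.82 ± 0.10), H2AC20 (-0.78 ± 0.19) and H1-10 (-0.45 ± 0.10). The fitted log2 fold change of H1-3 was -5.70 ± 0.64, and -7.49 without DAXX_KO_etoposide replicate 2. None of the 8 tested genes annotated past the stem-loop was called in either direction by edgeR (1 at an unadjusted p under 0.05, and 0 by DESeq2).

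**Figure D5:**
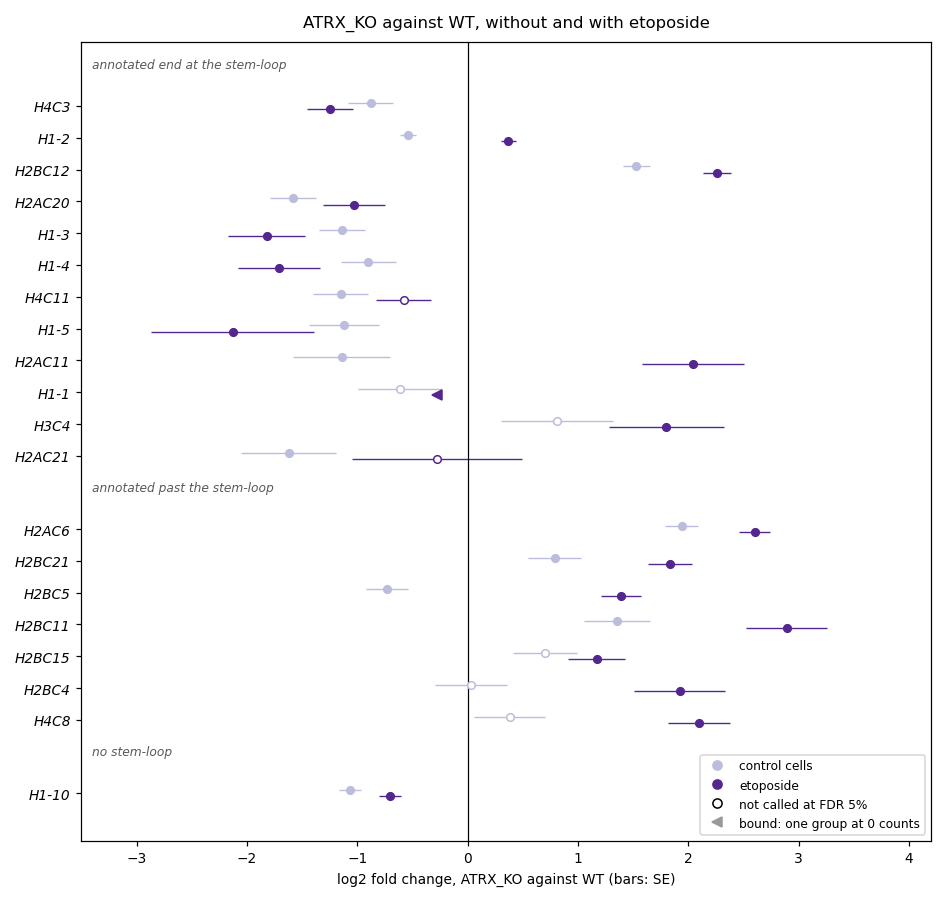
Log2 fold change of ATRX_KO against WT for tested members in control cells (light) and with etoposide (dark), bars are SE of the edgeR fit, open points not called at a false discovery rate of 5%, and the triangle is a bound for H1-1, which had 0 counts in ATRX_KO cells given etoposide. The 7 genes annotated past the stem-loop lie right of 0 with etoposide, from 1.17 to 2.89, and H1-2, H2BC5 and H2AC11 change sides.

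H2AC6 and H2BC12, which were both lower in DAXX_KO and higher in ATRX_KO control cells, share promoter features read from RefSeq (GRCh38.p14), where 34 of the 38 genes had an entry. In the 250 bases before the start, searched on both strands, TATAAA was found in 64.7% of these genes and 11.1% of all promoters, CCAAT in 88.2% and 33%, and the octamer ATTTGCAT in 38.2% and 1.66%. The window of each gene counted once for each motif, and TATAAA can overlap its own reverse complement. The windows of H3C4 and H2AC7 were identical, and those of neighbours on opposite strands, such as H2AC6 and H2BC4, overlapped. The 34 entries are therefore not all separate promoters, and the same site can count for both genes. The octamer, known from H2B promoters as the site read by POU2F1, was found in 6 of 10 H2B and 6 of 8 H2A promoters. It was found in 0 of 9 H1 promoters, where these letters were not in the window. The octamer marked for H2AC6 is the same 8 bases as that of its neighbour H2BC4 on the other strand. H2AC1 and H2BC1 share their octamer in the same way. The windows of H2AC20 and H2AC11 likewise take in the octamers of their neighbours H2BC21 and H2BC11. H2BC4 was lower in DAXX_KO control cells (-1.51 ± 0.32) and was not called in ATRX_KO control cells (0.03 ± 0.33). The last 130 bases before the start are shown for the pair, with the 3 motifs on either strand in capitals.
H2AC6 (chr6:26124042-26124171, plus strand): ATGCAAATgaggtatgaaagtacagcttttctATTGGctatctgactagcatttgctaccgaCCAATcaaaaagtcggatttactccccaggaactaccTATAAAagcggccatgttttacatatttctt
H2BC12 (chr6:27146859-27146988, minus strand): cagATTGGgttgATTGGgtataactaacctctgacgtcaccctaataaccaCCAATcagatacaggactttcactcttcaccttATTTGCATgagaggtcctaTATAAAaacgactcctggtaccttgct
H2AC20 and H2AC21, which were lower in ATRX_KO control cells, hold the same 3 motifs in the 250 bases, but neither has an octamer in the last 130. H2BC21, whose octamer lies in the H2AC20 window, was higher in ATRX_KO control cells (0.79 ± 0.24). A match of letters is a description of the sequence and not evidence that a factor bound there.

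Genes of S phase changed in the same comparisons. Of 14 tested S phase genes, SLBP among them, such as those of the MCM helicase that unwinds DNA at replication forks, 13 were lower with etoposide in DAXX-series WT cells, 12 in ATRX-series WT cells, 12 in DAXX_KO and 13 in ATRX_KO cells, with median log2 fold changes of -1.43, -1.20, -1.15 and -1.19. Of all tested genes, 30.6%, 29.8%, 27.8% and 25.2% were lower in these comparisons, with medians of 0.02, 0.07, 0.00 and 0.03. In control cells 12 were lower in DAXX_KO and 10 in ATRX_KO than in WT, with medians of -0.53 and -0.38, against 26.6% and 21% of all genes and a median of 0.02 in each series. With etoposide in DAXX-series WT cells, MCM3 was at -2.65, MCM6 at -2.31 and RRM1, a subunit of ribonucleotide reductase, at -2.24, all on the log2 scale. By flow cytometry the paper found more untreated knockout cells in G1, and fewer in S and G2, than among control cells. With etoposide, it reports that the S phase percentage rose in knockout cells compared with control. Whether those cultures were treated as these libraries were is not given. The part of S phase genes in the histone results was not tested.

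SLBP, which binds the stem-loop, was lower with etoposide in all 4 comparisons, by 2.17 and 1.94 on the log2 scale in WT cells of the DAXX and ATRX series, by 1.77 in DAXX_KO and by 1.23 in ATRX_KO cells, and its interaction in the ATRX series was called (0.71, adjusted p = 0.00618). Of 18 genes of histone transcription and 3′ end processing, SLBP among them, 14 were lower and 4 higher in each WT group with etoposide, 13 lower and 3 higher in DAXX_KO cells, and 14 lower and 3 higher in ATRX_KO cells. For these genes and for those of decay, replacement histones and chaperones, the counts are to be read against the shares of all genes. With etoposide these are 30.6% lower and 29.6% higher in DAXX-series WT cells and 29.8% lower and 31.7% higher in ATRX-series WT cells. In the knockouts they are 27.8% lower and 26.8% higher in DAXX_KO cells and 25.2% lower and 24.3% higher in ATRX_KO cells. The lower ones included CCNE2, a cyclin of S phase entry (-2.87 and -2.31 in the WT groups), CCNE1 (-1.93 and -1.49), CASP8AP2 (-1.54 and -1.40) and NPAT, the activator of histone genes (-0.94 and -0.90); the higher ones included SYMPK, of the cleavage complex, and NCBP2, of the cap-binding complex. In control cells 9 of the 18 were lower and 0 higher in DAXX_KO cells by edgeR (0 also at an unadjusted p under 0.05 and by DESeq2), and 3 were lower and 4 higher in ATRX_KO cells, where 26.6% of all genes were lower in the former and 21% lower and 20.8% higher in the latter. Of 8 genes of histone mRNA decay, 5 were lower and 2 higher with etoposide in DAXX-series WT cells and 3 lower and 2 higher in those of the ATRX series; ERI1, the exonuclease that trims histone mRNA ends, was at -1.66 and -1.46.

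Among the replacement histone genes, which lie outside the rule, 7 of 8 were lower with etoposide in DAXX-series WT cells and 7 of 7 in those of the ATRX series, led by CENPA, the centromeric H3 (-3.63 and -2.70), and H2AX (-2.33 and -2.42). H3-3A and H3-3B, which encode the H3.3 that DAXX and ATRX deposit, were lower in both knockouts in control cells. H3-3B was lower by 1.38 in DAXX_KO and 0.67 in ATRX_KO, and H3-3A by 0.60 and 0.99, on the log2 scale. Of the tested replacement genes, 4 of 8 were lower and 2 higher in DAXX_KO control cells, against 26.6% and 26.7% of all genes. In ATRX_KO control cells 6 of 7 were lower, against 21% of all genes. Of 10 chaperones of H3 and H4, DAXX and ATRX included, 9 and 8 were lower with etoposide in the WT groups, among them ASF1B (-2.07 and -1.86) and NASP (-2.16 and -1.88).

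Genes next to the clusters were counted too. Of the neighbours on chromosome 6 that are not histone genes, 11 were tested in the DAXX series and 5 of these were higher and 0 lower in DAXX_KO control cells, and of 12 tested in the ATRX series 5 were higher and 0 lower in ATRX_KO control cells (edgeR; 0 lower also at an unadjusted p under 0.05 and by DESeq2). Of all genes, 26.7% and 20.8% were higher. ZNF391 had the largest fitted increases but had at most 1 count in each WT control library. Next came BTN3A3, an immunoglobulin-like receptor gene (2.15 and 1.84), and BTN3A1 (1.35 and 1.22), as log2 fold changes in DAXX_KO and ATRX_KO cells. On chromosome 1, the neighbour listed under the older symbol HIST2H2AA3 is itself an H2A gene that the symbol rule does not take; it was lower in DAXX_KO (-1.75) and higher in ATRX_KO control cells (0.73), and so had the directions of H2AC6 and H2BC12.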

How the data were processed

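RNA was measured in 24 libraries of U87-T cells (3 for each of 8 groups) by 3′ end sequencing of polyadenylated RNA. The authors used STAR for alignment to hg19 and RSEM with an Ensembl transcriptome for quantification. The deposited table holds raw counts, whole numbers with no normalization. Genes were matched by identifier to GENCODE release 44 on GRCh37 (55501 identifiers, 98.8% of counts). Counts of each series (12 libraries, 4 groups) were fitted with edgeR 4.0.16 (R 4.3.3): filterByExpr (at least 10 counts, total at least 15), TMM scaling, quasi-likelihood tests and Benjamini-Hochberg adjustment over all tested genes, called at 5%. The difference between the knockout effects used all 24 libraries. SE is the size of the log2 fold change over the square root of F. The authors' tool, DESeq2, was an alternative (1.42.0), beside other scalings, filters, sets of libraries, a replicate block and leaving each library out. The fits were tested on simulated data.

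Of the tested genes, 1 is not reported here by name. Named are the 15 genes with the highest mean CPM, the 3 largest called increases and decreases of each comparison, genes with a called interaction, the listed members, DAXX and ATRX, and up to 4 genes of each other list. The genes and lists were chosen with earlier results of these data known, and the split by annotated 3′ end was set after the data were seen. Library totals of 6928950 to 13298557 counts put 3 counts at 0.217 to 0.405 CPM. No library duplicated another: replicates differed by 2.16 to 17.1 times sampling noise (chi-square per degree of freedom). Values in sums and groups are CPM after TMM scaling, which takes the bulk of genes as unchanged. Protein sequences were not used here.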

Additional observations from a re-analysis of the deposited data

Results flagged for a closer look

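All results listed here were set apart by a test of a difference between effects, made with edgeR and adjusted over all tested genes; values are differences of log2 fold changes. The response to etoposide was more positive in DAXX_KO than in WT cells for H2BC12 (2.32), H2BC5 (1.12) and H2AC6 (1.00).

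In the ATRX series the response was more positive in ATRX_KO cells for H2AC11 (3.19), H2BC5 (2.12), H2BC4 (1.89), H4C8 (1.71), H2BC11 (1.53), H2BC21 (1.04), H1-2 (0.91), H2BC12 (0.73) and H2AC6 (0.66). It was more negative for H1-1 (-4.21), a fitted value that depends on the prior count because ATRX_KO cells given etoposide had 0 counts.

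The effect of knockout in control cells was more negative in DAXX_KO than in ATRX_KO cells for H1-3 (-5.23), H2AC6 (-3.08), H2BC12 (-2.78), H2BC11 (-2.11), H2BC4 (-1.54), H2BC15 (-1.12) and H2BC21 (-1.05). It was more positive for H2AC21 (1.88), H1-10 (0.76) and H2AC20 (0.71).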

How the results depend on the processing

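Of 4651 values of single members under the alternatives, 4459 kept direction and side of the threshold, 161 lost the call, 31 gained one and 0 reversed. With at least 10 counts in every library, fewer members were tested and called: 10 in place of 17 for etoposide in each WT group, 7 in place of 11 for the ATRX_KO interaction, and 7 in place of 11 for the difference between knockout effects. Leaving out each library in turn gave 5 to 10 calls for the ATRX_KO interaction and 7 to 11 for the difference between knockout effects. With a replicate block the counts were 14, 16, 13, 8 and 3 in the DAXX series (knockout in control cells, etoposide in WT, etoposide in DAXX_KO, knockout with etoposide, interaction), 15, 17, 17, 19 and 10 in the ATRX series, and 11 for the difference. Replicate numbers did not pair the libraries (correlations of -0.215 to 0.0486 over 36 pairs). Scaling by library totals alone moved the median of all genes by 0.18 in DAXX_KO control cells, where 11 members were then called in place of 14; the calls lost were those of H1-10 (-0.13), H2BC11 (-0.58) and H4C11 (-0.53). Single clones, 3 libraries a group and shared reads among copies limit these values, and low-count members are near the floor.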
